A study of Homo sapiens with 6 samples.

Results

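miR-515-5p and miR-515-3p are the 2 mature miRNAs cut from the 2 arms of 1 hairpin, the miR-515 precursor. They were taken by name, and read by their accessions MIMAT0002826 and MIMAT0002827, as 2 of 800 miRNA rows, of which 177 carry a name in the deposited tables. The cells were RMUG-S-ip1, a line of human ovarian cancer of the mucinous type, transfected with an siRNA against PRKRA (siPRKRA) or with a control siRNA, 3 libraries each. Both groups went through the same lipid transfection, the medium was changed after 6 h, and 100 ng of total RNA from each sample was measured with the NanoString nCounter miRNA assay. In that assay colour-coded reporters bound to each miRNA are counted without amplification. All samples are of 1 line, and nothing in the labels shows that replicates came from different cultures; the p-values here cover the spread among these 6 samples and no more, and that spread may be technical.

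Dicer cuts a hairpin precursor into a short duplex, and usually 1 strand of it enters an Argonaute protein while the other is degraded. The 5p and 3p arms of 1 precursor are therefore made in equal number but can be kept in very unequal amounts. The protein made from PRKRA, PACT, binds double-stranded RNA and works with Dicer. miR-515 belongs to C19MC, a large imprinted miRNA cluster found in primates, which is active mainly in placenta and is switched on in some tumours. miR-515-3p is the arm that the study of these cells took further. The arms therefore bear on the question of which miRNAs differ once PACT is silenced. How far PRKRA itself was silenced is not known from the values analysed here.

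The sequences show why the arms have to be described separately: each has its own seed, bases 2 to 8, which leads target recognition. RefSeq (GRCh38.p14) places 2 copies of the precursor gene on the plus strand of chromosome 19, MIR515-1 at chr19:53679003-53679085 and MIR515-2 at chr19:53685009-53685091, with 5923 bases between them. Their hairpins, each 83 bases long, are identical, so the assay cannot split the signal between the copies. The mature arms are printed with the seed in capitals, and the hairpin with both mature arms in capitals.
miR-515-5p: uUCUCCAAaagaaagcacuuucug
miR-515-3p: gAGUGCCUucuuuuggagcguu
MIR515-1: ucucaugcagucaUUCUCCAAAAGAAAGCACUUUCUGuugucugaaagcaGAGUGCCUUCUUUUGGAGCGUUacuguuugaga
In the minimum free energy fold predicted by RNAfold, 18 base pairs joined the 24 bases of the 5p arm to the 22 bases of the 3p arm.

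The closest relatives by seed are both arms of miR-519e, a neighbour in the cluster. They are shown because they share the seed of miR-515-5p and of miR-515-3p exactly, again with the seed in capitals.
miR-519e-5p: uUCUCCAAaagggagcacuuuc
miR-519e-3p: aAGUGCCUccuuuuagaguguu
Counted from 1 at the 5′ end, and with the base of miR-515 first, the 5p arms differ at A12G and A13G over the 22 bases they share, and the 3p arms at G1A, U9C, G15A and C19U. Of the 177 named miRNAs, 143 have a RefSeq mature sequence under that name, and 0 of them share the seed of miR-515-5p and 0 that of miR-515-3p. In RefSeq as a whole, miR-33b-3p also carries the seed of miR-515-3p. No value is given for miR-519e or miR-33b-3p, which are not among the named miRNAs. Among the 143, the mature sequence nearest to miR-515-5p was that of miR-524-5p, at 6 edits, and the nearest to miR-515-3p was that of miR-519b-3p, also at 6 edits. miR-524-5p had values of 19.48, 2.36 and 11.68 in siPRKRA libraries and was at the floor in the control siRNA libraries, whereas miR-515-5p was above the floor in all 6 libraries, at 49.03 or more. miR-519b-3p was above the floor in siPRKRA replicate 1 alone, at 2.62, where miR-515-3p was at 41.42.

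The deposited values are counts above a subtracted background, multiplied by 1 factor per library, with low values set to a floor. One count was worth 0.231, 1.09 and 0.469 units of value in siPRKRA replicates 1, 2 and 3, and 1.496, 1.525 and 1.315 units in control siRNA replicates 1, 2 and 3. The floor lay at values of 1, 1.09 and 1 in siPRKRA and of 1.5, 1.53 and 1.32 in control siRNA libraries, which is 4.33, 1.004 and 2.13 counts in siPRKRA and about 1 count in each control siRNA library. A value of 1, below the floor of its library, stood in 7 miRNA rows of siPRKRA replicate 2 and in 2, 2 and 1 rows of control siRNA replicates 1, 2 and 3, and is counted here as at the floor; neither miR-515 arm was among them. In all, 142683 to 305261 counts above background lay in miRNA rows of siPRKRA libraries and 51641 to 56192 in those of control siRNA libraries. These totals include miR-4454, with a mean value of 53721 in siPRKRA and 3950 in control siRNA libraries. They do not give the depth for other miRNAs. siPRKRA replicate 2 held 228546 counts in all, yet 1 count there was worth 1.09 units. siPRKRA replicate 2 stood somewhat apart, with Pearson correlations across miRNAs of 0.840 to 0.915 with the other libraries. Of the 7 epithelial marker miRNAs, all were named and 5 were above the floor in every library. Their summed values were 7088 to 7849 in siPRKRA and 8565 to 9762 in control siRNA libraries. Most of that sum was miR-200c-3p and miR-205-5p, and the markers differed in sign. Log2 estimates were higher in siPRKRA for miR-200a-3p (1.54), miR-429 (0.73), miR-203 (0.63) and miR-200b-3p (0.37). They were lower for miR-141-3p (-0.46), miR-200c-3p (-0.39) and miR-205-5p (-0.081), and none of the 7 passed in limma. The blood marker miR-144-3p, the only 1 of 5 with a name, ran from 1.09 to 39.37 in siPRKRA and from 6.07 to 151 in control siRNA libraries, and endothelial miR-126-3p from 161 to 216 in siPRKRA and from 214 to 229 in control siRNA libraries. The 2 named of 7 pluripotency markers, miR-302d-3p and miR-371a-3p, summed to 27.41 to 131 in siPRKRA and 138 to 188 in control siRNA libraries. The part of these markers in the results was not tested.

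The level of miR-515-5p did not differ between the groups beyond the spread of the libraries. Its values were 104.0, 49.03 and 82.55 in siPRKRA replicates 1, 2 and 3, and 77.86, 71.87 and 97.82 in control siRNA replicates 1, 2 and 3. The groups overlapped, and both the highest and the lowest value belonged to siPRKRA libraries, the lowest to replicate 2. The means were 78.5 ± 27.7 in siPRKRA and 82.5 ± 13.6 in control siRNA libraries (SD, n = 3 each). The siPRKRA minus control siRNA difference in log2(value + 1) was -0.12 ± 0.31 (SE, 95% interval -0.87 to 0.63), with a limma adjusted p of 0.858. That interval still spans a fall or a rise of more than 0.6 log2 units, so the test does not show that the level stayed the same.

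miR-515-3p was seen above background in siPRKRA libraries alone. Its values were 41.42, 16.47 and 28.10 in siPRKRA replicates 1, 2 and 3, and each control siRNA library lists it at the floor (1.5, 1.53 and 1.32). The groups did not overlap, and the lowest siPRKRA value was again that of replicate 2. With each control library set to 3 counts above background, the control siRNA mean was 4.34. The siPRKRA mean of 28.7 ± 12.5 (SD, n = 3) was 6.61-fold that value. This fold is no lower bound, because the background subtracted is not known. On the log2(value + 1) scale, where the floor and the pseudocount set the size, the difference was 3.51 ± 0.59 (SE).

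That difference did not pass over the 198 miRNAs that rose above the floor in any library (limma adjusted p = 0.0595). Its unadjusted limma p, 0.000705, was the smallest of all 198, but that rank is not used as support. miR-515-3p entered the 198 through its siPRKRA values alone, and its control spread is that of the floor values. In the same fit 0 of 198 miRNAs (0%) were called and 34 (17.2%) had an unadjusted p under 0.05. The count was likewise 0 in limma-voom on recovered counts. For both arms taken singly, the exact two-sided permutation test over the 6 libraries gave 0.1 for miR-515-3p, the smallest p that 3 against 3 allows, and 0.9 for miR-515-5p. Of the 198 miRNAs, 33 (16.7%) had all siPRKRA values above all control siRNA values, and 21 (10.6%) had them all below. At the floor in every control siRNA library and above it in every siPRKRA library were 14 (7.07%), and 0 (0%) showed the reverse. Fewer miRNA rows were above the floor in control siRNA libraries, 125, 125 and 130 in replicates 1, 2 and 3. siPRKRA replicates 1, 2 and 3 had 174, 165 and 166. miR-515-3p had the highest mean siPRKRA value of these 14.

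Without siPRKRA replicate 2, miR-515-3p differed by 3.84 (limma adjusted p = 0.0054), and 70 miRNAs were called. With 25 counts added back to every recovered count before scaling, miR-515-3p differed by 0.21 (limma adjusted p = 0.464). Values at the floor were taken as 1 count first, so this setting fixed the control siRNA level of miR-515-3p rather than recovering it. The authors' deposited table gives miR-515-3p a p of 0.00695 and an adjusted p of 0.193, the fourth smallest p of its 177 miRNAs. For miR-515-5p the authors' deposited table gives a p of 0.743 and an adjusted p of 0.877.

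**Figure D1:**
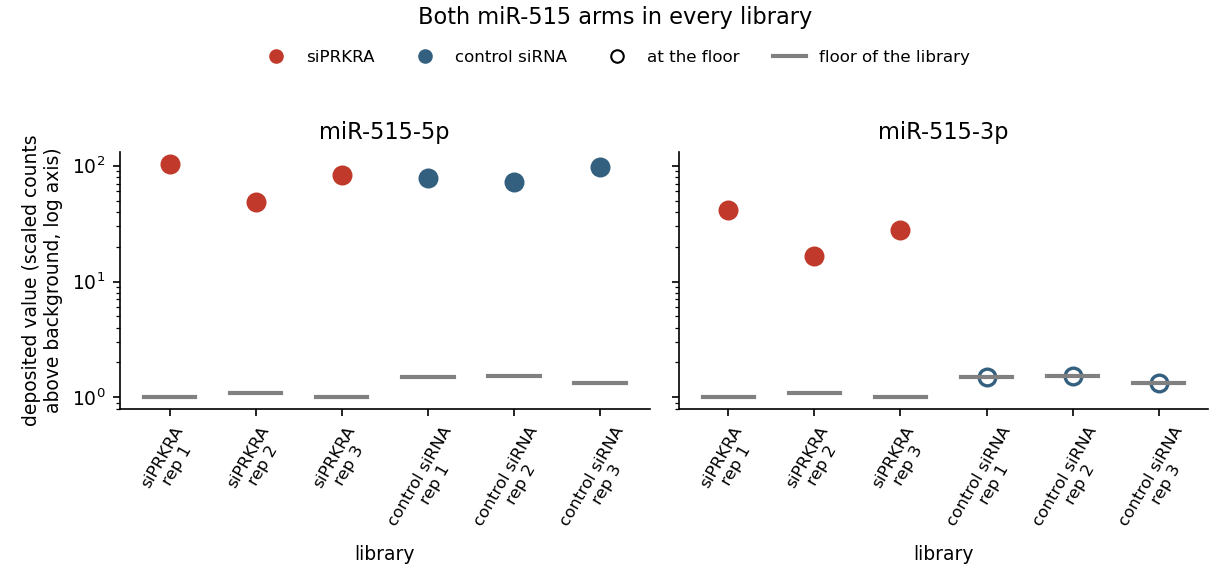
Deposited value of miR-515-5p (left) and miR-515-3p (right) in each library on a log axis, with siPRKRA in red and control siRNA in blue. Grey lines mark the floor of each library and open circles a value at the floor. The 5p arm lies between 49.03 and 104.0 in all 6 libraries, while the 3p arm lies between 16.47 and 41.42 in siPRKRA and at the floor in control siRNA libraries.

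The ratio of the arms was even across the siPRKRA libraries and differed from that of the control siRNA libraries. A ratio within a library does not depend on its scaling factor, except through the floor and the pseudocount. The 5p value was 2.51, 2.98 and 2.94 times the 3p value in siPRKRA replicates 1, 2 and 3, a mean of 2.81 ± 0.26 (SD, n = 3). In control siRNA replicates 1, 2 and 3 it was 17.4, 15.7 and 24.8 times the 3p value when miR-515-3p was set to 3 counts. The groups did not overlap at that setting. Taking geometric means, the arm ratio was 2.80 in siPRKRA and 18.9 in control siRNA libraries, 6.75-fold higher in the latter. These control ratios are not lower bounds. Counting error and the unknown background allow smaller ones, as given below. The evenness within siPRKRA held although the levels of both arms there varied more than 2-fold, with siPRKRA replicate 2 lowest for both.

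The counts behind these ratios were few in control siRNA libraries and in siPRKRA replicate 2. miR-515-5p rested on 450, 45.2 and 176 counts above background in siPRKRA replicates 1, 2 and 3, and on 52.1, 47.1 and 74.4 in control siRNA replicates 1, 2 and 3. miR-515-3p rested on 179, 15.2 and 59.9 counts in siPRKRA replicates 1, 2 and 3.

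As a share of the counts of both arms, miR-515-3p made up 28.5% in siPRKRA replicate 1 (exact Clopper-Pearson 95% interval 24.96% to 32.2%). The share was 25% in siPRKRA replicate 2 (interval 14.7% to 37.9%) and 25.4% in siPRKRA replicate 3 (interval 19.997% to 31.5%). In control siRNA libraries the floor value, about 1 count, was taken as 0, which gave 0 of 52, 0 of 47 and 0 of 74 counts. By the rule of 3 counts over the total, that allows shares of up to 5.77%, 6.38% and 4.05%. The exact Clopper-Pearson 95% interval used for siPRKRA allows up to 6.85%, 7.55% and 4.86%. The 3 siPRKRA intervals overlap one another, and all lie above both kinds of limit of the control siRNA libraries. The intervals and limits cover counting error of the counts above background only, not the error of the background that was subtracted.

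**Figure D2:**
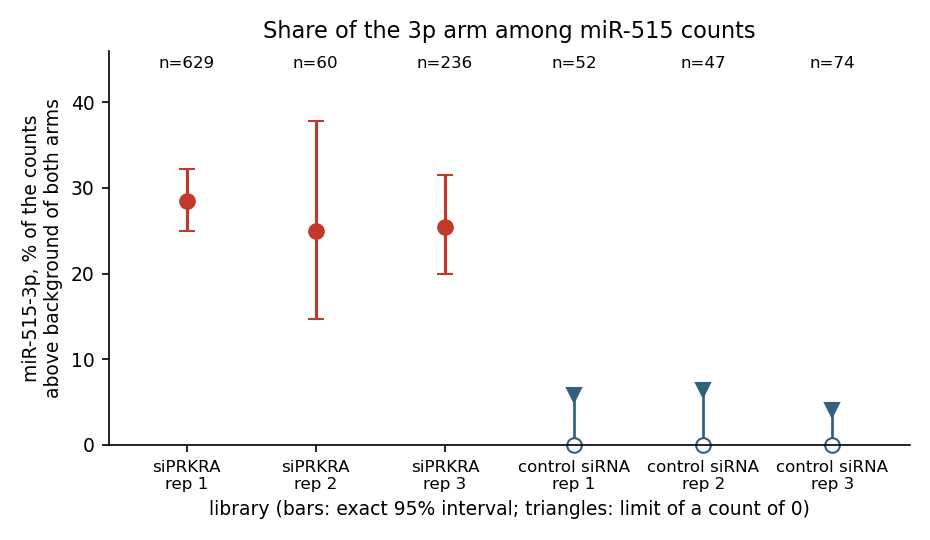
Percent of miR-515-3p among the counts above background of both arms, by library, with siPRKRA left of control siRNA. Bars are exact 95% intervals, and n gives the counts of both arms. Triangles are the limit with a floor value taken as a count of 0 (3 counts over the total). The siPRKRA shares lie between 25% and 28.5%, and the control siRNA limits between 4.05% and 6.38%.

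The change of arm ratio was tested in 1 fit over the 9 named precursors with both arms in the table. For miR-515 the mean log2 ratio of (5p value + 1) over (3p value + 1) was 1.45 ± 0.12 in siPRKRA and 5.08 ± 0.30 in control siRNA libraries (SD, n = 3 each). The difference was -3.63 ± 0.32 (SE, 95% interval -4.38 to -2.88), and each of 3 siPRKRA libraries lay below all control siRNA libraries. It passed with a limma adjusted p of 3.36e-05, while the exact permutation p for miR-515 alone was 0.1, the smallest possible. In this fit 3 of 9 precursors (33.3%) were called, so the call itself was not rare among them. The 9 precursors are those with names, and no miRNA at the floor in all siPRKRA libraries carries one. miR-515-3p, at the floor in all control siRNA libraries, could therefore enter the fit only with at least 1 siPRKRA value above it. That favoured, without fixing it, a higher estimate for this arm. The same holds for miR-151a-5p and miR-362-3p, and the adjusted p does not allow for this. Since miR-515-3p lay at the floor in every control siRNA library, the control spread in this test is that of miR-515-5p and of the floor values alone, and the 3p arm adds none of its own.

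The other called precursors were miR-151a and miR-362, and they too had an arm at the floor in all 3 control siRNA libraries. miR-151a-3p had values of 147, 163 and 152 in siPRKRA and 123, 151 and 173 in control siRNA libraries. miR-151a-5p had 11.86, 11.04 and 4.64 in siPRKRA libraries and was at the floor in control siRNA libraries. In miR-151a, then, the 5p arm was above the floor in siPRKRA libraries alone, beside an abundant 3p arm. The log2 ratio of 5p over 3p differed by 1.91 ± 0.42 (SE, limma adjusted p = 0.00848). miR-151a-5p rested on 51.4, 10.2 and 9.89 counts in siPRKRA replicates 1, 2 and 3, beside 635, 150 and 324 of the 3p arm. Control siRNA libraries held 82.1, 99.1 and 131 counts of the 3p arm. Whether so few could show the 5p arm was not tested. For miR-362 the difference was 1.99 ± 0.55 (SE; limma adjusted p = 0.0198), with miR-362-5p at 25.25, 15.39 and 23.41 in siPRKRA against 4.58, 1.69 and 1.32 in control siRNA libraries. miR-362-3p was above the floor in 2 siPRKRA libraries alone, so its ratio rests on the floor in the other 4 libraries.

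The remaining 6 precursors did not pass, with limma adjusted p values between 0.172 and 0.885. The 5 precursors with both arms above the floor in all 6 libraries, miR-125a, miR-28, miR-361, miR-423 and miR-512, were all among them. miR-512, the other C19MC precursor with both arms named, had 5p values of 95.46, 69.66 and 89.12 in siPRKRA and 101.79, 56.61 and 74.14 in control siRNA libraries. Its 3p values were 64.97, 70.74 and 59.55 in siPRKRA and 30, 48.98 and 53.10 in control siRNA libraries, so miR-512-3p was higher in each siPRKRA library. The arm ratio of miR-512 differed by -0.44 ± 0.47 (SE, 95% interval -1.51 to 0.64; limma adjusted p = 0.485), the same sign as for miR-515 with an interval that includes 0. miR-574, whose 3p arm was at the floor in control siRNA replicate 3, had a difference of -1.94 ± 0.95 (SE; limma adjusted p = 0.172).

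**Figure D3:**
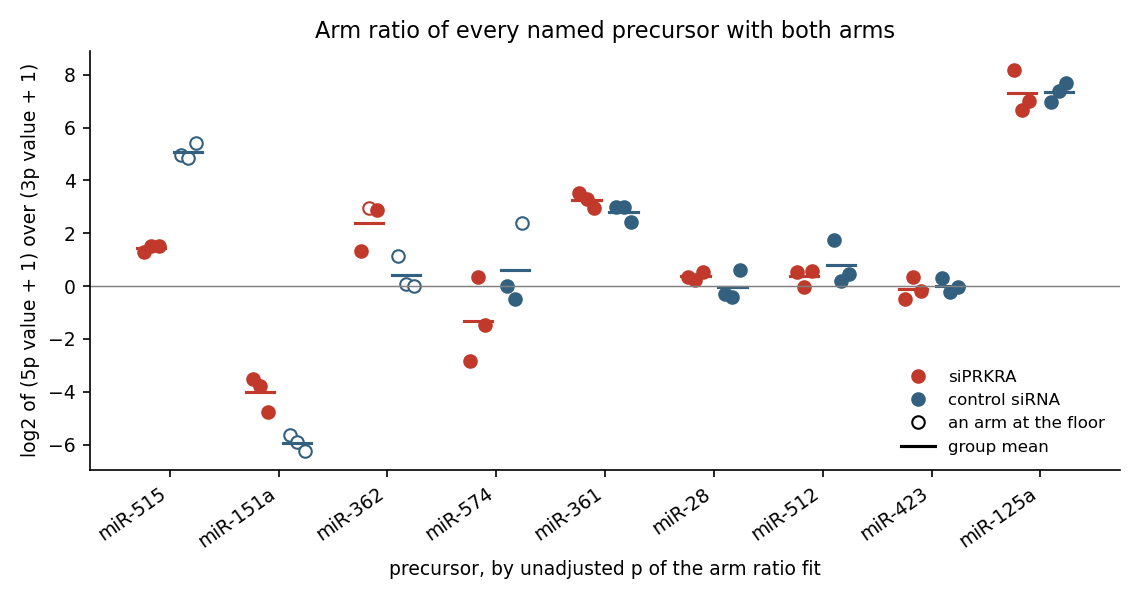
Log2 of (5p value + 1) over (3p value + 1) for the 9 named precursors with both arms, 1 point per library, siPRKRA (red) left of control siRNA (blue), lines at group means. Open points have an arm at the floor. The groups are apart for miR-515, miR-151a and miR-362, whose control siRNA points all have an arm at the floor, and overlap for the other 6.

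The size of the difference, and whether it passed, depended on the counts added back, a stand-in for a smaller background subtraction. Values at the floor were taken as 1 count before the addition. The control siRNA level of miR-515-3p was therefore fixed by the setting, not recovered. With 10 counts added back to each arm in every library, the 5p over 3p ratio was 2.19 to 2.66 in siPRKRA and 5.19 to 7.67 in control siRNA libraries, and the log2 difference was -1.28 ± 0.34 (SE; limma adjusted p = 0.0064). With 25 counts added back the ratios were 1.75 to 2.37 in siPRKRA and 2.77 to 3.82 in control siRNA libraries, still without overlap, and the difference of -0.56 ± 0.34 (SE) no longer passed (limma adjusted p = 0.157). With 50 counts added back the groups overlapped, at 1.46 to 2.18 in siPRKRA and 1.90 to 2.44 in control siRNA libraries. The background subtracted in each library is not given in the sources used here. Setting every library to at least 3 counts, or to 1 common floor, kept the call, at -2.51 and -2.44 with limma adjusted p values of 0.000186 and 0.00016.

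**Figure D4:**
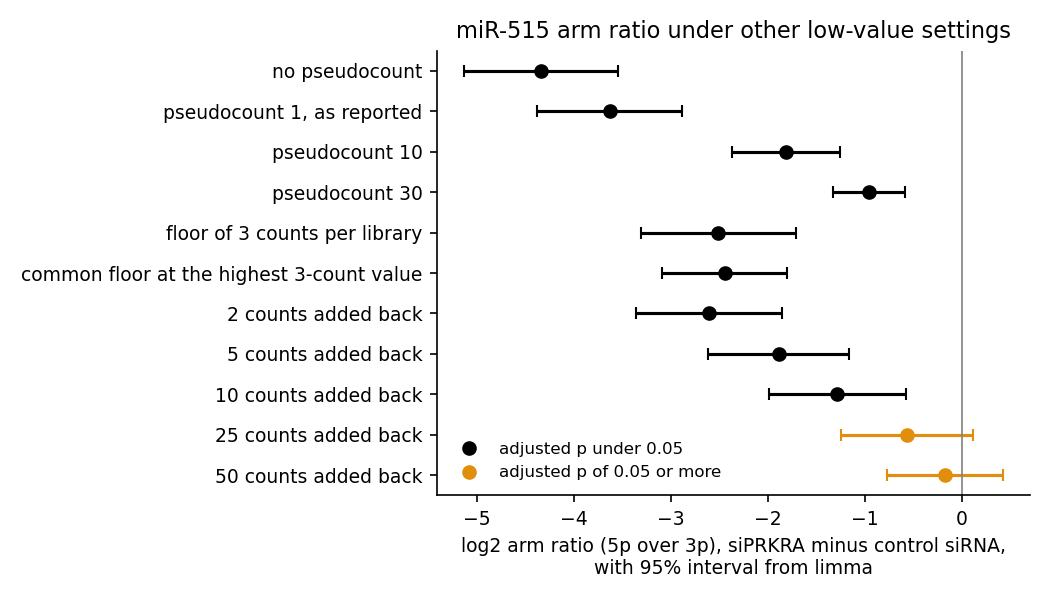
Difference in the log2 arm ratio of miR-515, siPRKRA minus control siRNA, with its 95% limma interval, under other pseudocounts, floors and counts added back. Black points have an adjusted p under 0.05 and orange points do not. The difference shrinks from -4.34 with no pseudocount to -0.17 with 50 counts added back and passes in each setting drawn except those with 25 and 50 counts added back.

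The arms did not follow each other across the 6 libraries. On log2(value + 1) their Pearson correlation was 0.0041 (n = 6 libraries, which share the group difference, given as a description), although within siPRKRA both were highest in replicate 1 and lowest in replicate 2. Among the other 176 named miRNAs, those most like miR-515-3p were miR-519c-3p of the same cluster (0.996), miR-503 (0.989) and miR-582-5p (0.987). All 3 were at or near the floor in control siRNA libraries. miR-519c-3p, for instance, had 19.02, 12.13 and 14.49 in siPRKRA and 1.5, 1.69 and 1.32 in control siRNA libraries. Those most like miR-515-5p were abundant miRNAs from other loci: miR-30c-5p (0.897), miR-15a-5p (0.856), which represses BCL2, and miR-19a-3p (0.854), a member of the MYC-induced miR-17-92 cluster. Like miR-515-5p, each was lowest in siPRKRA replicate 2, where miR-30c-5p was at 76.17 against 106 to 122 in the other siPRKRA and 95.81 to 112 in control siRNA libraries.

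Beside the 2 arms, the deposited tables name 20 other rows of the C19MC cluster. All 20 had a higher estimate in siPRKRA, with a median log2 difference of 0.80. Of all 198 fitted miRNAs 118 had a higher estimate, with a median of 0.15. In limma 0 of the 20 passed, as did 0 of all 198. An unadjusted p under 0.05 was found for 5 of the 20, against 34 of all 198 (17.2%). Of the 20, 12 were at the floor in all control siRNA libraries, and 5 of those were above it in all siPRKRA libraries. Among all 198, 14 (7.07%) showed that pattern, all of them among the 44 named miRNAs at the floor in every control siRNA library. No named miRNA lay at the floor in every siPRKRA library (0), while 44 did so in every control siRNA library. A higher estimate of those 12 rows was therefore favoured, though not fixed, by which rows carry a name. Above the floor in all 6 libraries, as miR-515-5p was, were 7 of the 20. All 7 had a higher estimate, from 0.16 to 1.23, and none passed. The share of higher estimates among all miRNAs above the floor in all 6 libraries was not counted.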

How the data were processed

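miRNA levels were measured in 6 libraries with the nCounter assay, per the labels' protocols. The signal table deposited by the authors holds 822 rows, 800 of them miRNAs. From its values, the signal is a count above background times 1 factor per library; after division by the recovered factor 100% of the values checked were whole within 0.1, once the fraction left by the background was taken off. The deposited log2 table is log2 of the same signal (largest difference 0.000234). The authors' deposited table of 177 named miRNAs gives p-values and a fold change that is a ratio of log2 levels, treated as a score. The background rule and the software: not given in the sources used here.

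limma 3.58.1 (R 4.3.3) was fitted to log2(value + 1), with no term but group, over the 198 miRNAs that rose above the floor in any library, and to the arm difference over 9 precursors, with Benjamini-Hochberg adjustment and a threshold of 0.05. A filter at a value of 30 in at least 3 libraries, which leaves 106 miRNAs, would drop miR-515-3p. Both fits were run on simulated data with normal noise and no floor, which does not cover an arm at the floor in all control siRNA libraries. Python 3.11.15, scipy 1.17.1 and RNAfold 2.7.2 were used. The design allowed for counts; no deposited column holds them. miRNAs named were the 2 arms, seed sharers, C19MC arm pairs, the 3 most correlated with each arm and the 3 arm ratios with the smallest p; the nearest sequences, miR-574 and the precursors listed with both arms measured were added later. Members, lists and settings were chosen with earlier results of these data known.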

Additional observations from a re-analysis of the deposited data

How the results depend on the processing

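Over 23 alternatives the miR-515 arm ratio kept its direction, with differences from -4.34 to -0.17, and passed in 21. It did not pass with 25 counts (-0.56) or 50 counts (-0.17) added back. The 21 are not separate checks. Removing the filter repeated the reported fit (-3.63), and the deposited log2 values repeated the setting with no pseudocount (-4.34). Rescaling a library acts on its arm ratio only through the floor and the pseudocount. Leaving out 1 library at a time gave -3.75 to -3.46. miR-515-3p passed with no filter (3.51), in unscaled counts (4.81) and scaled by the graded control probes (4.77). With no filter its SE was 0.33 against 0.59 as reported, 611 of 800 miRNAs were called lower, and the median over all was -0.27. In unscaled counts and with the graded control probes the median over all miRNAs was itself 1.53 and 1.64. miR-515-3p had the opposite sign with 50 counts added back (-0.34). Leaving out 1 library gave 3.20 to 3.84. miR-515-5p passed in none of 25 alternatives, and had the opposite sign in unscaled counts (1.42) and with the graded control probes (1.53), where the median over all miRNAs was itself 1.53 and 1.64; leaving out 1 library gave -0.36 to 0.18, above 0 without siPRKRA replicate 2 (0.18) or control siRNA replicate 3 (0.0036). Called miRNAs numbered 2 with a common floor, 635 with no filter, 6 in unscaled counts, 14 with the graded control probes, and 0 to 70 with 1 library left out. Called arm ratios numbered 0 with 50 counts added back, 0 with the filter at a value of 30, which drops miR-515, and 1 to 4 with 1 library left out (1 without control siRNA replicate 3). They numbered 2, not 3, with a pseudocount of 10 or 30, either raised floor, 2 to 25 counts added back, or the replicate block. The cause of these shifts was not tested, except that fewer precursors or samples entered where stated. The replicate block gave -3.63 at a limma adjusted p of 0.00167 for the arm ratio and 3.51 at 0.25 for miR-515-3p. To check pairing, the group mean of each miRNA was taken off first. What was left correlated at 0.16, -0.12 and -0.069 between same-numbered libraries, against -0.20 to 0.22 between differently numbered ones. That gives no sign that the numbers pair them, but 3 libraries per group cannot show that they do not. Settings with 2 and 5 counts added back were chosen after seeing the data. Control siRNA libraries, with 47.1 to 74.4 counts of miR-515-5p, limit how small a share of miR-515-3p could be seen.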

Other observations

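The 14 miRNAs that lay at the floor in every control siRNA library and above it in every siPRKRA library, named here after their values were seen, came from several loci. For miR-498 this includes a value of 1 in control siRNA replicate 2, below the floor of that library. The 14 are 7.07% of the 198 miRNAs fitted, which hold 20 C19MC rows beside the miR-515 arms. Of the 14, 6 were C19MC members: miR-515-3p, miR-518b, miR-524-5p, miR-518c-3p, miR-498 and miR-517a-3p, with siPRKRA means of 28.7, 20.9, 11.2, 9.80, 9.25 and 9.01. The other 8 were miR-1268a (19.8), let-7c (18.8), miR-582-5p (18.6), miR-132-3p (16.7), miR-503 (10.5), the hypoxia-induced miR-210 (9.76), miR-151a-5p (9.18) and miR-484 (6.87). miR-515-3p had the highest siPRKRA mean and the highest lowest value (16.47) of the 14.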
